A study of Mus musculus with 9 samples.

Results

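The 7 genes described here, Mycn, Myc, Max, Mnt, Mxd1, Mxd4 and Mxi1, belong to the MYC network of transcription factors and were taken by name from a table of 23420 genes. They were selected on the levels of Mycn and Myc across these groups, with their levels in these libraries already known. The values that selected them, and every comparison of these groups for them, are therefore given as a description. Where the test run over all genes called any of the 7, the call is given without a conclusion, because these contrasts had served to choose them. RNA was measured by sequencing in 9 libraries of primary cultured ankle cells from C57BL/6 mice at passage 1. Arthritis tissue-derived synovial macrophages (ADSM, 3 libraries) and arthritis tissue-derived synovial fibroblasts (ADSF, 3 libraries) came from swollen ankles of mice with collagen antibody induced arthritis (CAIA), which is brought on by antibodies against type II collagen followed by lipopolysaccharide, and normal tissue-derived synovial fibroblasts (NDSF, 3 libraries) came from ankles without arthritis. No genotype other than the strain and no animal age is given, and macrophages of normal ankles were not analysed here. The fibroblasts were the cells that adhered to collagen within the first hour and were expanded for several days, whereas the macrophages were the cells left on plastic after a longer co-culture from which the fibroblastic cells had been detached with trypsin, so adherence, culture time and cell type cannot be told apart.

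MYC proteins do not bind DNA alone. MYC and its relative N-MYC, the product of Mycn, pair with MAX and bind the E-box sequence CACGTG, where they favour transcription of genes for ribosome assembly, metabolism and cell division. MNT, MXD1, MXD4 and MXI1 pair with the same MAX protein, bind the same E-box and recruit the SIN3 and histone deacetylase corepressors, so they oppose MYC at shared sites. Mycn is best known from embryonic and neural tissue and from neuroblastoma, whereas Myc is the form used by most dividing adult cells.

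The libraries held 2380483 to 3351184 reads over genes, and values are reads scaled by the TMM method (trimmed mean of M values), on which a single read was worth 0.854 to 1.24. Library 3 of NDSF stood apart from the other libraries of its group: the chi-square per degree of freedom of its reads was 21 against library 1 and 16.4 against library 2, while libraries 1 and 2 gave 1.71. Of 10 macrophage markers, 9 were higher in ADSM than in ADSF and none was lower, with a summed value of 37425 to 40802 in ADSM, compared with 821 to 1567 in ADSF and 863 to 2031 in NDSF. Mertk, a macrophage receptor for dying cells, went against that label with a mean of 2.13 in ADSM, compared with 5.62 in ADSF and 26.5 in NDSF. All 10 fibroblast markers were lower in ADSM, at a summed value of 61.5 to 127, against 86811 to 97420 in ADSF and 105599 to 165110 in NDSF. Markers of muscle cells summed to 0 to 0.854 in ADSM, compared with 48.5 to 101 in ADSF and 526 to 1210 in NDSF. Markers of endothelial cells summed to 1.04 to 3.42 in ADSM, compared with 50.5 to 59.6 in ADSF and 133 to 378 in NDSF, and those of Schwann and neural cells to 1.71 to 4.15 in ADSM, compared with 14.9 to 27.6 in ADSF and 40.4 to 63.5 in NDSF. Markers of neutrophils and lymphocytes summed to at most 4.15 in any library. The mice are described as female, but 4 of 4 Y-linked genes were read in every ADSM library, with sums of 337 to 469, and in no ADSF or NDSF library, while Xist, the RNA that silences an X chromosome in female cells, stood at 0 to 3.42 in ADSM, compared with 2721 to 2891 in ADSF and 1872 to 2477 in NDSF. The ADSM libraries thus did not match the described sex, and whether their cells came from the described mice could not be checked. Sex and cell type therefore cannot be told apart in any comparison with ADSM. The methods name another library kit for NDSF than for ADSM and ADSF, whereas the sample descriptions give a single kit, so kit and group cannot be told apart in comparisons with NDSF. Libraries were not tied to animals, and the p-values below measure the spread between libraries.

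The table places Mycn on the minus strand of mm10 chromosome 12 from 12936093 to 12941836 with 3 exons, and Myc on the plus strand of chromosome 15 from 61985341 to 61990361, also with 3 exons. Max lies on chromosome 12 (76937269 to 76962248), Mnt on chromosome 11 (74830924 to 74845725), Mxd1 on chromosome 6 (86647045 to 86669159), Mxd4 on chromosome 5 (34176580 to 34187710) and Mxi1 on chromosome 19 (53310506 to 53375810). RefSeq promoter windows of the assembly GRCm38.p6 were found for Mycn, Max, Mnt, Mxd1, Mxd4 and Mxi1, the last with 3 windows, and the 250 bases before each start were searched on both strands. The windows of Mycn, Mnt and Mxd4 are shown because they carry the matches. Capitals mark the E2F-type matches in Mycn (TTTGGCGC and TTTCGCGC or their reverse complements) and the E-box CACGTG in Mnt and Mxd4. In Mycn, on the minus strand at chr12:12941837-12942086, matches to TTTGGCGC begin 183 and 168 bases before the start, and a match to the reverse complement of TTTCGCGC, which overlaps the first, begins 179 bases before it. In Mnt, on the plus strand at chr11:74830674-74830923, the E-box begins 123 bases before the start, and in Mxd4, on the minus strand at chr5:34187711-34187960, it begins 219 bases before it.
Mycn: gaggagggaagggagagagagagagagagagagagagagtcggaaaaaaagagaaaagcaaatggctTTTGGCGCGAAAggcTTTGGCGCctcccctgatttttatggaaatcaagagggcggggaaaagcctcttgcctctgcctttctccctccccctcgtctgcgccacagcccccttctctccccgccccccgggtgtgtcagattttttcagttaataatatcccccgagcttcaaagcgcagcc
Mnt: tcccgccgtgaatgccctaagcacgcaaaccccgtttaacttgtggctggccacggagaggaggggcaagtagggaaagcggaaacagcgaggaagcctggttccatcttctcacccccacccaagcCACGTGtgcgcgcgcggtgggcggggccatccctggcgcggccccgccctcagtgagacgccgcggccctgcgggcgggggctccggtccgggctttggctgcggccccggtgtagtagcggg
Mxd4: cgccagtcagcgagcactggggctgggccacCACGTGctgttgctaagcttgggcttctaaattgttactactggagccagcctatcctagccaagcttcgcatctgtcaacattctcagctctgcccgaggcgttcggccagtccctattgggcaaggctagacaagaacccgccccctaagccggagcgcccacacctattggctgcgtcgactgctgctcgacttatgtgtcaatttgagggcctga

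E2F-type matches stood in 0.654% of 32851 promoter windows of the same length and in 1 of the 8 windows of these genes. The E-box stood in 6.02% of all windows and in 2 of the 8. Neither Mxi1, Max, Mxd1 nor Mycn had an E-box in these bases, and TATAAA was found in none of the 8 windows. These are matches of letters in short windows and say nothing of binding.

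Mycn was found in the macrophage cultures and at the level of single reads in the fibroblast cultures. Its value was 1112, 927 and 1119 in ADSM, against 3.97, 2.49 and 0 in ADSF and 0.920, 0 and 0.939 in NDSF. All 3 ADSM libraries lay far above all 6 fibroblast libraries, whereas the ADSF and NDSF libraries overlapped. In reads, the ADSM value rests on 1302, 893 and 1197, that of ADSF on 4, 2 and 0 and that of NDSF on 1, 0 and 1. Summed over libraries and scaled for depth, ADSM held 466 times the Mycn of ADSF (95% exact counting interval 214 to 1272) and 1669 times that of NDSF (462 to 13788), intervals that cover counting error only. On the log2(value + 1) scale, which compresses differences from values near 0, the difference was 8.66 (SE 0.52) between ADSM and ADSF and 9.40 (SE 0.52) between ADSM and NDSF. Mycn entered the set of tested genes, those that reached 10 or more in 3 or more libraries, through ADSM alone. Between the fibroblasts the 6 reads of ADSF and the 2 of NDSF gave a ratio of 3.58 with an interval of 0.640 to 36.3, which includes a ratio of 1.

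The few Mycn reads of the fibroblast cultures were set beside the macrophage markers of the same libraries. The ADSF mean of Mycn was 0.205% of the ADSM mean and the NDSF mean 0.0589%. For Lyz2, the lysozyme of myeloid cells, the share of the ADSM mean was 3.79% in ADSF and 4.87% in NDSF, and for Csf1r, the receptor for the macrophage growth factor CSF1, 1.62% in ADSF and 1.83% in NDSF. For Cx3cr1, the fractalkine receptor, it was 0.357% in ADSF and 0.280% in NDSF. Every macrophage marker of the list thus had a larger share of its ADSM level in ADSF than Mycn had. The shares ranged widely, from 0.296% for Fcgr1 to 12.9% for Emr1, and 264% for Mertk. As Mertk went against the macrophage label, its share does not stand for macrophage RNA. The part of macrophage RNA in the fibroblast Mycn reads was not tested.

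Myc ran the other way. It stood at 5.13, 5.19 and 2.80 in ADSM, against 136, 204 and 129 in ADSF and 139, 125 and 154 in NDSF. All ADSM libraries lay below all fibroblast libraries, and ADSF and NDSF overlapped. ADSM held 14 Myc reads in all, ADSF 408 and NDSF 440, and after scaling for depth ADSF held 35.3 times the Myc of ADSM (counting interval 20.8 to 65.2). The log2 difference was -4.87 (SE 0.25) for ADSM against ADSF, -4.74 (SE 0.25) for ADSM against NDSF and 0.14 (SE 0.25) for ADSF against NDSF. The 10 fibroblast markers in ADSM came to 0.0664%, 0.0762% and 0.137% of their ADSF mean in libraries 1, 2 and 3, while Myc came to 3.28%, 3.32% and 1.79%. The share of Myc in ADSM was thus above that of fibroblast marker RNA in each of the 3 libraries. These Myc shares rest on 6, 5 and 3 reads, and the part of fibroblast RNA in them was not tested.

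**Figure D1:**
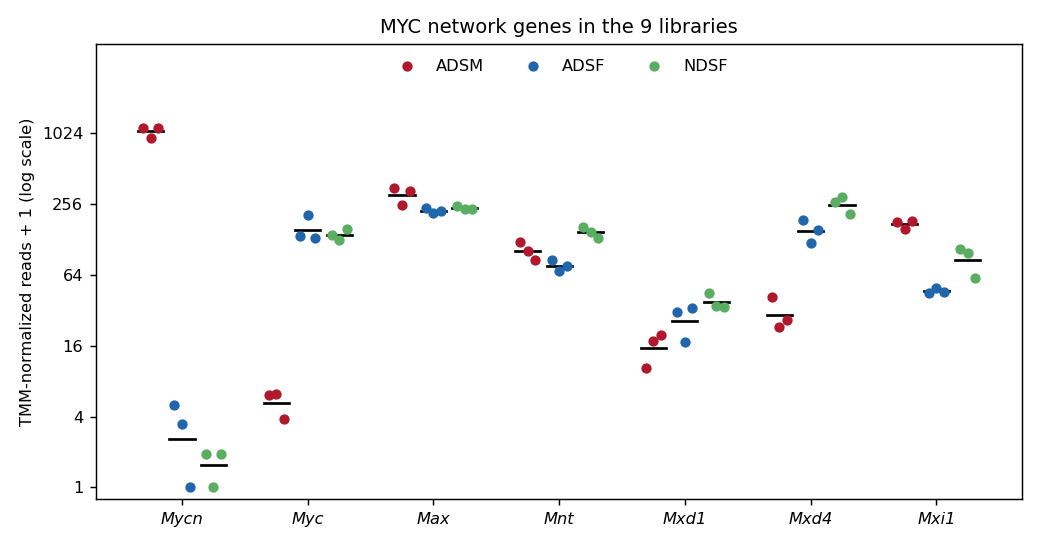
TMM-normalized reads + 1 (log scale) of the 7 MYC network genes in each library of ADSM, ADSF and NDSF, with points for libraries and bars for group means on the log scale. Mycn lies between 927 and 1119 in ADSM and at or under 3.97 in every fibroblast library, while Myc lies at 2.80 to 5.19 in ADSM and at 125 or above in every fibroblast library.

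The third gene of the MYC family, Mycl (named Mycl1 in the table), was at 0 in all ADSM libraries, against 3.97, 7.47 and 6.01 in ADSF and 11.04, 6.99 and 4.69 in NDSF, and was too low to be tested. Per kb of exon, Mycn made up 99.4% to 99.7% of the summed Mycn and Myc level in ADSM, compared with 0% to 2.63% in ADSF and 0% to 0.608% in NDSF. The sum itself was 407 ± 41.7 per kb in ADSM, compared with 66.0 ± 17.6 in ADSF and 58.3 ± 6.24 in NDSF (SD, n = 3 each). On that per kb scale Mycn ranked 500 from the top among the 13046 genes read in ADSM, and Myc ranked 3275 of 15409 in ADSF and 3661 of 16106 in NDSF. The FPKM values deposited for the ADSM and ADSF libraries gave 145 ± 13.7 for Mycn in ADSM and 24.1 ± 6.35 for Myc in ADSF (SD, n = 3 each). As in any bulk sample, fewer cells of a type and less RNA per cell cannot be told apart.

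Max, the shared partner of MYC and of its opponents, differed less between the groups than Mycn and Myc. It stood at 349, 246 and 324 in ADSM, against 233, 212 and 222 in ADSF and 241, 228 and 230 in NDSF. The lowest ADSM library, 246, lay just above the highest fibroblast library, 241. The log2 difference was 0.45 (SE 0.13) for ADSM against ADSF, 0.38 (SE 0.13) for ADSM against NDSF and -0.07 (SE 0.13) for ADSF against NDSF.

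Mxd4, the opponent of MYC linked to differentiating cells, was the repressor partner with most reads per kb in the fibroblasts. Its value was 40.2, 21.8 and 25.2 in ADSM, against 185, 118 and 153 in ADSF and 261, 288 and 206 in NDSF. The 3 groups did not overlap, with ADSM lowest and NDSF highest. The log2 difference was -2.37 (SE 0.24) for ADSM against ADSF, -3.11 (SE 0.24) for ADSM against NDSF and -0.74 (SE 0.24) for ADSF against NDSF.

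Mxi1, which is also known as MXD2, was highest in the macrophages. Its value was 178, 155 and 180 in ADSM, against 43.7, 48.5 and 44.5 in ADSF and 105, 96.9 and 59.1 in NDSF. The groups did not overlap, and library 3 of NDSF lay nearer to ADSF than to the other NDSF libraries. The log2 difference was 1.88 (SE 0.20) for ADSM against ADSF, 1.01 (SE 0.20) for ADSM against NDSF and -0.88 (SE 0.20) for ADSF against NDSF. Without library 3 of NDSF the difference between ADSF and NDSF was -1.13 for Mxi1.

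Mnt, the most widely expressed opponent of MYC, was lowest in the arthritic fibroblasts. It stood at 120, 101 and 84.1 in ADSM, against 83.4, 67.2 and 74.5 in ADSF and 161, 146 and 130 in NDSF. The lowest ADSM library and the highest ADSF library differed by less than the value of a read. The log2 difference was 0.42 (SE 0.16) for ADSM against ADSF, -0.52 (SE 0.16) for ADSM against NDSF and -0.95 (SE 0.16) for ADSF against NDSF.

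Mxd1, a MAX partner induced as myeloid cells mature, was the lowest of the repressor partners per kb of exon. It stood at 9.40, 16.6 and 18.7 in ADSM, against 29.8, 16.2 and 32.5 in ADSF and 43.3, 34.0 and 32.9 in NDSF. ADSM and ADSF overlapped through library 2 of ADSF, and ADSM lay below NDSF. ADSF lay below NDSF, but its highest library and the lowest NDSF library differed by less than the value of a read. The log2 difference was -0.76 (SE 0.32) for ADSM against ADSF, -1.29 (SE 0.32) for ADSM against NDSF and -0.52 (SE 0.32) for ADSF against NDSF.

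**Figure D2:**
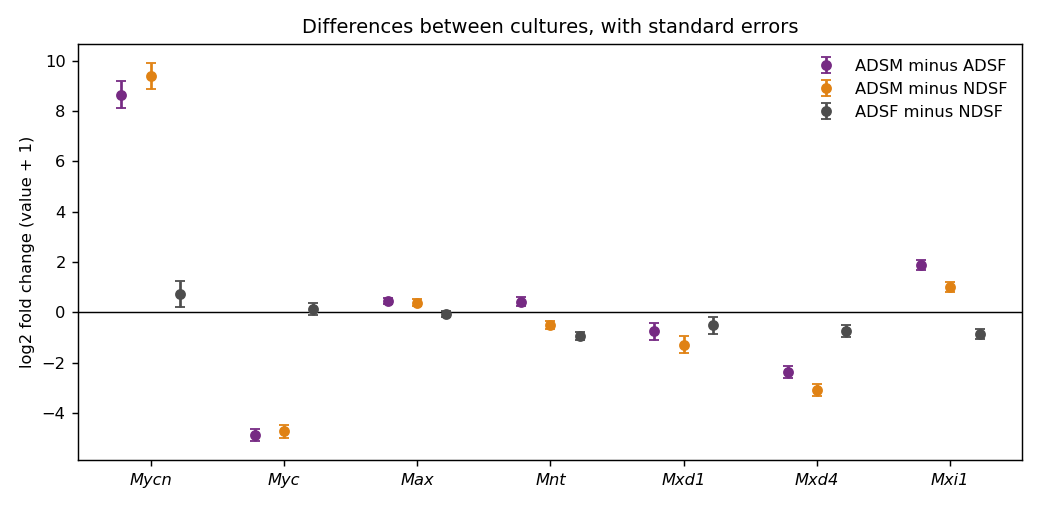
Log2 fold changes (value + 1) of the 7 genes with standard errors for ADSM minus ADSF, ADSM minus NDSF and ADSF minus NDSF. Mycn lies at 8.66 and 9.40 and Myc at -4.87 and -4.74 in the comparisons with ADSM, while the values for ADSF minus NDSF run between -0.95 and 0.74.

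By limma with adjusted p under 0.05, 6 of the 7 genes were called between ADSM and ADSF (4 higher and 2 lower in ADSM), where 71.1% of the 11889 tested genes were called (30.1% higher and 41.0% lower in ADSM), and all 7 between ADSM and NDSF (3 higher and 4 lower in ADSM), where 75.4% were called (32.0% higher and 43.3% lower in ADSM). Between ADSF and NDSF, 2 of the 7 were called, both lower in ADSF (Mnt and Mxi1), beside 21.2% of all tested genes (9.88% higher and 11.3% lower in ADSF). The higher count in ADSM was 2 against ADSF without library 1 or library 2 of ADSM and 1 against NDSF without library 1 or library 3 of ADSM, and the lower count in ADSF was 1 without library 3 of ADSF or without library 1 or library 2 of NDSF. Without library 3 of ADSF 1 of the 7, Mycn, was called higher in ADSF than in NDSF. That call rests on 4 and 2 reads in ADSF against 1, 0 and 1 in NDSF. These contrasts were used in the choice of the genes, and nothing is read from the counts. Libraries did not overlap for 6 of the 7 genes between ADSM and ADSF (76.7% of all tested genes), for 7 of 7 between ADSM and NDSF (77.6%) and for 4 of 7 between ADSF and NDSF (38.1%).

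Levels of different genes were compared per kb of exon. In ADSM the order was Mycn (405 per kb), Max (153), Mxi1 (30.4), Mxd4 (24.6), Mnt (22.2), Mxd1 (3.20) and Myc (1.82). The libraries of Mxd4 overlapped there with those of Mxi1 and of Mnt, and those of Mxd1 with those of Myc. In ADSF the order was Mxd4 (129 per kb), Max (111), Myc (65.1), Mnt (16.4), Mxi1 (8.11), Mxd1 (5.61) and Mycn (0.829), and only Mxd4 and Max overlapped among neighbours. In NDSF it was Mxd4 (214 per kb), Max (116), Myc (58.0), Mnt (31.7), Mxi1 (15.5), Mxd1 (7.87) and Mycn (0.239), with no overlap between neighbours. By group means, the place taken by Mycn at the head of the list in ADSM was held by Mxd4 in both fibroblast groups. In library 2 of ADSF, however, Max (106 per kb) lay above Mxd4 (100 per kb).

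The 4 repressor partners summed to 80.4 ± 11.9 per kb in ADSM, compared with 159 ± 31.0 in ADSF and 269 ± 42.1 in NDSF (SD, n = 3 each). Mxd4 made up 30.1% ± 5.45 of that sum in ADSM, compared with 80.8% ± 1.98 in ADSF and 79.5% ± 1.70 in NDSF. Mxi1 made up 38.2% ± 4.34 in ADSM, compared with 5.28% ± 1.38 in ADSF and 5.69% ± 0.898 in NDSF. The ratio of Mycn plus Myc to the repressor partners was 4.58, 5.02 and 5.70 in ADSM, against 0.308, 0.677 and 0.334 in ADSF and 0.205, 0.173 and 0.292 in NDSF. MYC family transcripts were thus above those of the opponents in every ADSM library and below them in every fibroblast library. The ratio of Mycn plus Myc to Max was 2.69 ± 0.226 in ADSM, compared with 0.600 ± 0.187 in ADSF and 0.502 ± 0.0543 in NDSF. These are ratios of transcripts, and protein was not measured.

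**Figure D3:**
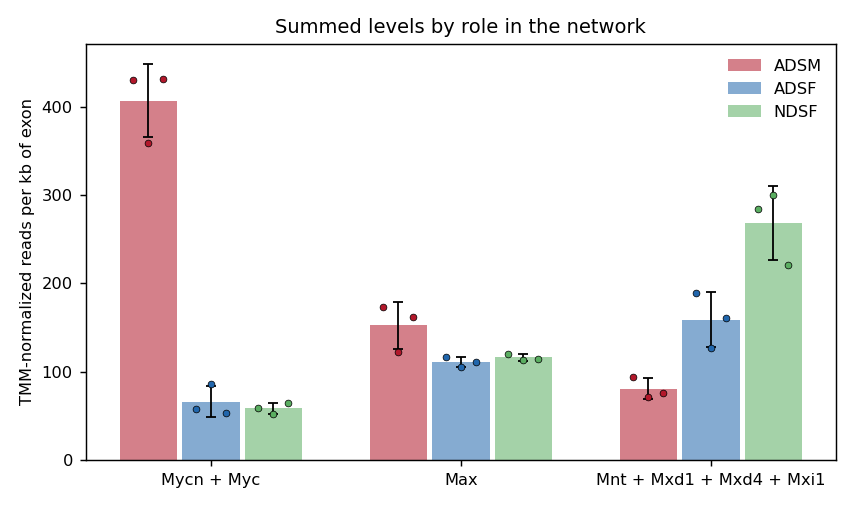
Summed TMM-normalized reads per kb of exon of Mycn plus Myc, of Max and of the 4 repressor partners in ADSM, ADSF and NDSF, with bars for means, error bars for the SD of 3 libraries and points for libraries. The MYC family sum is 407 in ADSM, compared with 66.0 in ADSF and 58.3 in NDSF, while the repressor sum is 80.4 in ADSM, compared with 159 in ADSF and 269 in NDSF.

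Other genes of the MAX network and of the parallel MLX network were called by limma over all 11889 genes. MLX pairs with MXD1, MXD4 and MNT and with the glucose sensors MLXIP and MLXIPL. Mlx stood at 152, 144 and 158 in ADSM, against 60.5, 74.7 and 61.3 in ADSF and 64.4, 59.9 and 59.1 in NDSF, and was higher in ADSM than in ADSF by 1.20 (SE 0.14, adjusted p = 1.4e-05) and than in NDSF by 1.29 (SE 0.14, adjusted p = 6.8e-06) on the log2 scale. Mga, a large MAX partner of a repressor complex, was lower in ADSM than in ADSF, with 161, 295 and 204 in ADSM and 407, 320 and 379 in ADSF (log2 difference -0.78, SE 0.19, adjusted p = 0.0034). Mxd3, an MXD protein of dividing precursor cells, was also lower in ADSM than in ADSF, with 5.98, 5.19 and 12.2 in ADSM and 23.8, 36.1 and 32.5 in ADSF (-1.92, SE 0.37, adjusted p = 0.00082). Mlxip did not pass the test in any comparison, and none of the 4 tested genes passed between ADSF and NDSF. Mlxipl had at most 1.24 in any library and was not tested.

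The neighbours of Mycn and Myc were read for comparison with the genes themselves. Ddx1, an RNA helicase next to Mycn, stood at 525, 614 and 596 in ADSM, against 602, 662 and 560 in ADSF and 495, 492 and 579 in NDSF, with a log2 difference of -0.07 (SE 0.11, adjusted p = 0.57) between ADSM and ADSF. Nbas, a membrane traffic gene beyond Ddx1, was lower in ADSM than in ADSF (log2 difference -0.63, SE 0.12, adjusted p = 0.00079), at 149, 158 and 130 in ADSM and 235, 228 and 213 in ADSF. Fam49a, on the other side of Mycn, was nearly unread in ADSM (0, 0 and 0.935), against 31.8, 42.3 and 16.8 in ADSF and 42.3, 45.9 and 30.03 in NDSF (adjusted p = 1.4e-06 for ADSM against ADSF). No neighbour was called higher in ADSM with the deposited scaling, while Ddx1 was called 0.29 higher in ADSM than in NDSF after scaling to the upper quartile. Pvt1, a noncoding RNA beside Myc, was lower in ADSM than in ADSF, with 23.1, 23.9 and 16.8 in ADSM and 43.7, 66.0 and 54.1 in ADSF (-1.32, SE 0.22, adjusted p = 0.00029). Mycnos, the antisense partner of Mycn, has no row, and as the strand setting of the counting is not stated its reads could not be told apart from those of Mycn.

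Of 17 tested coactivators that MYC proteins recruit, 9 were higher in ADSM than in ADSF, 1, Smarcb1, was lower and 7 were not called, beside 30.1% higher and 41.0% lower over all tested genes. The median log2 difference was 0.48 beside -0.14 over all tested genes. Against NDSF 10 were higher and 3 lower, beside 32.0% higher and 43.3% lower over all, with a median of 0.71 beside -0.18. Scaling to the upper quartile moved the medians over all tested genes to 0.01 against ADSF and -0.04 against NDSF, and changes below are to be read against that shift. Smarcb1 was not called under that scaling or without library 1 of ADSF, and 2 coactivators were lower without library 2 of ADSF. Ruvbl1 and Ruvbl2 encode paired ATPases of the TIP60 and INO80 complexes. Ruvbl2 stood at 413, 365 and 426 in ADSM, against 126, 210 and 151 in ADSF (1.33, SE 0.20, adjusted p = 0.00013), and Ruvbl1 at 400, 325 and 340 in ADSM, against 144, 169 and 150 in ADSF (1.19, SE 0.16, adjusted p = 6.2e-05). Wdr5, a chromatin adaptor that MYC contacts directly, was higher in ADSM by 0.76 against ADSF (SE 0.13, adjusted p = 0.00024), and Cdk9, the kinase that releases paused polymerase, by 0.78 (SE 0.12, adjusted p = 0.00019). The histone acetyltransferase genes Kat5, Ep300 and Crebbp and the scaffold Trrap were among the 7 that did not pass between ADSM and ADSF.

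The 12 tested corepressor genes were those of the MXD and MNT proteins, together with Dnmt3a and Zbtb17, which act with MYC. Of these 12, 3 were higher and 3 lower in ADSM than in ADSF, both below the 30.1% and 41.0% of all tested genes. Against NDSF 5 were higher in ADSM and 3 lower, beside 32.0% and 43.3% of all, and the medians were 0.10 against ADSF and 0.23 against NDSF. After upper-quartile scaling 6 were higher in ADSM than in ADSF, Sin3a among them (adjusted p = 0.049 by limma). Sin3a, the scaffold that MXD proteins bind, did not pass between ADSM and ADSF (adjusted p = 0.22), at 245, 255 and 258 in ADSM and 217, 244 and 201 in ADSF. Sap30, a subunit of the SIN3 complex, stood at 93.1, 104 and 113 in ADSM, against 20.8, 24.9 and 15.6 in ADSF (2.30, SE 0.23, adjusted p = 4.9e-06). Dnmt3a, a DNA methyltransferase that MYC can recruit together with ZBTB17, stood at 575, 640 and 570 in ADSM, against 97.3, 98.3 and 101 in ADSF and 129, 113 and 121 in NDSF (2.58 against ADSF, SE 0.10, adjusted p = 2.9e-09).

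MYC and N-MYC proteins are short-lived, and 18 genes that set their stability were tested. Between ADSM and ADSF 5 were higher and 5 lower in ADSM, both below the background of 30.1% and 41.0%, and between ADSM and NDSF 9 were higher and 6 lower in ADSM, beside 32.0% and 43.3%. Aurka, the mitotic kinase that shields N-MYC from degradation, stood at 405, 311 and 418 in ADSM, against 154, 185 and 137 in ADSF and 54.3, 48.9 and 124 in NDSF (1.25 against ADSF, SE 0.30, adjusted p = 0.0032). Set, an inhibitor of the phosphatase that destabilizes MYC, stood at 3610, 2868 and 3570 in ADSM, against 821, 956 and 833 in ADSF (1.94, SE 0.17, adjusted p = 1.7e-06). Gsk3b, the kinase that marks MYC for degradation, was lower in ADSM, at 173, 197 and 164, against 328, 309 and 344 in ADSF (-0.88, SE 0.10, adjusted p = 1.9e-05). Fbxw7, the ubiquitin ligase subunit that reads that mark, did not pass in any of the 3 comparisons. Usp13, a deubiquitinase, was at 0 in all ADSM libraries, against 30.8, 36.1 and 40.9 in ADSF and 27.6, 20.0 and 25.3 in NDSF.

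Genes known as MYC targets were counted by function, and the same comparison also separates sex and culture history, whose part was not tested. The counts stand beside a background, over all tested genes, of 30.1% higher and 41.0% lower in ADSM than in ADSF and of 32.0% higher and 43.3% lower in ADSM than in NDSF. Of 32 nucleolar and ribosome assembly genes, 29 were higher and none lower in ADSM than in ADSF, with a median log2 difference of 1.02, and 31 were higher and none lower in ADSM than in NDSF, with a median of 1.68. The 3 that did not pass between ADSM and ADSF were Rrp9, Wdr74 and Utp20. Nolc1, a nucleolar phosphoprotein, stood at 1237, 1164 and 1289 in ADSM, against 350, 429 and 365 in ADSF and 133, 154 and 240 in NDSF (1.69 against ADSF, SE 0.19, adjusted p = 1.0e-05). Npm1, nucleophosmin, stood at 6798, 7297 and 7793 in ADSM, against 2696, 3257 and 2866 in ADSF (1.31, SE 0.14, adjusted p = 8.0e-06). Wdr12, of the complex that processes the large subunit rRNA, stood at 365, 338 and 352 in ADSM, against 109, 115 and 117 in ADSF (1.62, SE 0.16, adjusted p = 4.9e-06).

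Of 32 metabolic and translation genes, 25 were higher and 2 lower in ADSM than in ADSF, with a median of 0.92, beside 30.1% higher and 41.0% lower over all tested genes. Against NDSF 29 were higher and 1 lower, with a median of 1.40, beside 32.0% and 43.3%. The lower count against ADSF was 1 after upper-quartile scaling, when any library of ADSM was left out or without library 1 or library 2 of ADSF, and 3 without library 1 or library 3 of NDSF, with only these groups in the fit or with the replicate number as a block. Ptma, prothymosin alpha, stood at 10138, 7899 and 9820 in ADSM, against 2563, 2889 and 2272 in ADSF (1.85, SE 0.14, adjusted p = 4.3e-07). Pkm, pyruvate kinase, stood at 18066, 14794 and 17773 in ADSM, against 6157, 7036 and 6231 in ADSF (1.38, SE 0.12, adjusted p = 2.0e-06). Cad, which starts pyrimidine synthesis, stood at 868, 843 and 865 in ADSM, against 426, 508 and 424 in ADSF and 307, 332 and 340 in NDSF (0.93 against ADSF, SE 0.10, adjusted p = 8.2e-06). The glutamine transporter gene Slc1a5 stood at 1060, 976 and 1073 in ADSM, against 430, 490 and 489 in ADSF and 715, 750 and 787 in NDSF, so that ADSM lay above both fibroblast groups and ADSF lowest.

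Of 18 cell cycle genes, 9 were higher and 2 lower in ADSM than in ADSF, with a median of 0.52, beside a background of 30.1% higher and 41.0% lower. In ADSM against NDSF 13 were higher and 2 lower, with a median of 1.39, beside 32.0% and 43.3%. Ccnd2 and Id2 were the lower genes in both comparisons, and 4 were lower in ADSM than in ADSF without library 1 of ADSM. Ccnd2, cyclin D2, was nearly unread in ADSM at 8.54, 11.4 and 6.54, against 1751, 1644 and 2480 in ADSF and 520, 609 and 1184 in NDSF (-7.64 against ADSF, SE 0.30, adjusted p = 2.0e-09). E2f2, a cell cycle transcription factor, stood at 106, 75.8 and 91.6 in ADSM, against 3.97, 9.96 and 8.41 in ADSF and 14.7, 5.99 and 8.45 in NDSF (3.51 against ADSF, SE 0.37, adjusted p = 7.1e-06). E2f2 entered the tested genes through ADSM alone, the group where it is high, and Ccnd2 through the fibroblasts alone. Mcm5, of the replicative helicase, stood at 1140, 968 and 1129 in ADSM, against 279, 391 and 256 in ADSF (1.82, SE 0.30, adjusted p = 0.00022).

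Of 20 genes known to be repressed by MYC, 14 were lower and 2 higher in ADSM than in ADSF, with a median of -2.01, where 41.0% of all tested genes were lower and 30.1% higher. The counts in ADSM against NDSF were also 14 lower and 2 higher, with a median of -2.90, where 43.3% of all were lower and 32.0% higher. Several of them are fibroblast genes, such as the collagen gene Col1a2, also on the list of fibroblast markers, at 23.1, 20.8 and 42.1 in ADSM, against 31995, 31008 and 35099 in ADSF. Cdkn2b, an inhibitor of CDK4 and CDK6, stood at 0, 0 and 0.935 in ADSM, against 163, 111 and 162 in ADSF and 35.0, 36.0 and 113 in NDSF (adjusted p = 1.4e-07 for ADSM against ADSF). Gadd45b, a stress response gene, stood at 11.96, 5.19 and 8.41 in ADSM, against 188, 157 and 123 in ADSF (-4.08, SE 0.27, adjusted p = 1.4e-07). Cdkn2b and Gadd45b entered the tested genes only through the fibroblast libraries, where they are high. Cdkn1c, lower in ADSM in both comparisons, was tested only through its level in NDSF. No ADSM or ADSF library reached 10 for Cdkn1c, so nothing is read from its call between ADSM and ADSF. The 2 higher genes, Ndrg2 and Btg1, were named after their values were seen. Ndrg2 averaged 769 in ADSM, compared with 15.0 in ADSF and 103 in NDSF, and Btg1, an antiproliferative gene, 699 in ADSM, compared with 147 in ADSF and 255.7 in NDSF.

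**Figure D4:**
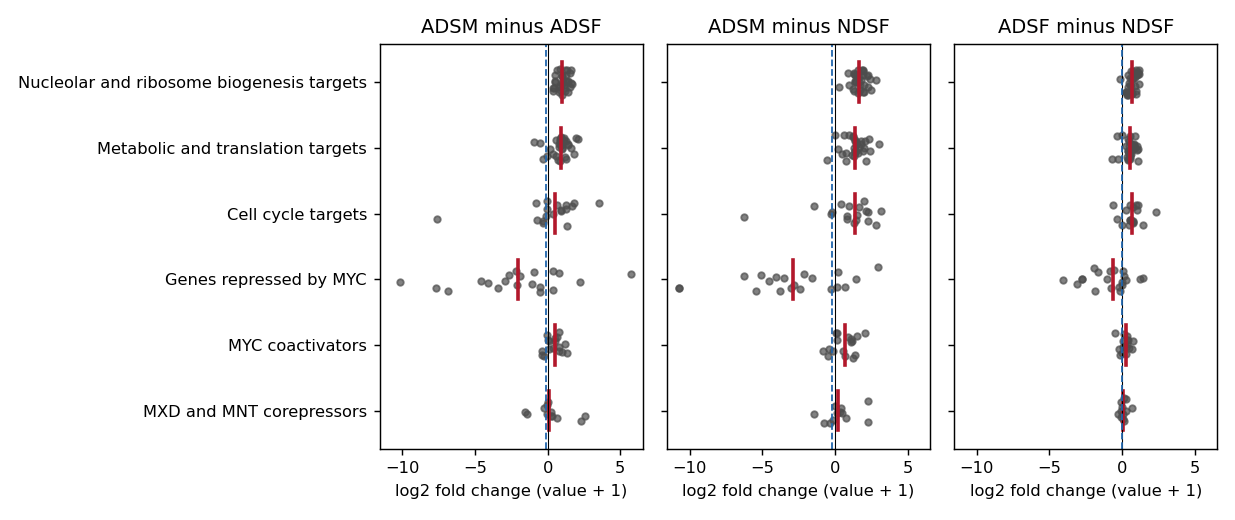
Log2 fold changes (value + 1) of each tested gene in 6 lists for ADSM minus ADSF, ADSM minus NDSF and ADSF minus NDSF, with points for genes, red bars for list medians and a dashed blue line for the median of all tested genes. The median of the nucleolar list is 1.02, 1.68 and 0.65 in these comparisons and that of the genes repressed by MYC -2.01, -2.90 and -0.66.

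Between ADSF and NDSF the libraries overlapped for both Mycn and Myc, with log2 differences of 0.74 (SE 0.52) for Mycn and 0.14 (SE 0.25) for Myc, whereas each repressor partner had a lower mean in ADSF. The Mycn difference ran between 0.27 and 1.43 when a library was left out, the upper value without library 3 of ADSF. By DESeq2 it was 1.83. Limma called Mycn without library 3 of ADSF and DESeq2 did not call it. With 6 Mycn reads in ADSF and 2 in NDSF, nothing is read from either. Mean values of Mnt were 75.0 ± 8.09 in ADSF and 145 ± 15.8 in NDSF, and those of Mxi1 45.6 ± 2.61 in ADSF and 87.0 ± 24.4 in NDSF (SD, n = 3 each). Mxd4 averaged 152 ± 33.2 in ADSF and 252 ± 41.4 in NDSF, and Mxd1 26.1 ± 8.73 in ADSF and 36.7 ± 5.71 in NDSF (SD, n = 3 each). MYC targets were also called in that comparison. Of the nucleolar genes 17 of 32 were higher in ADSF and none lower (median 0.65), of the metabolic genes 15 of 32 were higher and 1, Slc1a5, lower (0.51), and of the cell cycle genes 8 of 18 were higher and 1, Id2, lower (0.66; Id2 was not called without library 2 of NDSF), beside 9.88% of all tested genes called higher in ADSF, 11.3% called lower and a median of -0.01 over all tested genes. Without library 3 of NDSF these counts were 31 nucleolar, 27 metabolic and 13 cell cycle genes, and 4086 genes were called in all, against 2518 with it. Without library 1 of NDSF the counts were 9 nucleolar, 3 metabolic and 2 cell cycle genes of 877 called, and without library 2 of NDSF 9 nucleolar, 3 metabolic and 1 cell cycle gene of 756 called. Without library 2 of ADSF they were 9 nucleolar, 3 metabolic and 2 cell cycle genes of 1154 called, and without library 3 of ADSF 11 nucleolar, 7 metabolic and 2 cell cycle genes of 1271 called. The cell cycle count was also 4 without library 1 or library 3 of ADSM and 3 without library 1 of ADSF, and the metabolic count was 10 without library 3 of ADSM. The muscle and endothelial marker sums given above were higher in every NDSF library than in any ADSF library, and their part in these counts was not tested.

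Several targets were called between ADSF and NDSF whichever of the 9 libraries was left out. Nolc1 differed by 1.15 (SE 0.19, adjusted p = 0.0030), and Nop16, a nucleolar protein, stood at 127, 154 and 138 in ADSF, against 60.7, 56.9 and 84.5 in NDSF (1.06, SE 0.17, adjusted p = 0.0031). Hk2, the hexokinase that opens glycolysis in dividing cells, stood at 152, 239 and 206 in ADSF, against 82.8, 85.9 and 109 in NDSF (1.08, SE 0.17, adjusted p = 0.0026). Srm, spermidine synthase, stood at 335, 461 and 375 in ADSF, against 172, 200 and 284 in NDSF (0.85, SE 0.18, adjusted p = 0.0088). The groups did not overlap for any of these genes. Ccne1, cyclin E1, stood at 138, 166 and 130 in ADSF, against 8.28, 35.0 and 67.6 in NDSF (2.35, SE 0.54, adjusted p = 0.014), but was not called without library 2 of ADSF (adjusted p = 0.058).

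Of the genes repressed by MYC, 9 of 20 were lower and 2 higher in ADSF than in NDSF (median -0.66), with Cdkn1c tested only through its level in NDSF, and 6 were lower without library 1 or without library 2 of NDSF. Over all tested genes 11.3% were lower and 9.88% higher in ADSF. Cebpa and Cebpd, transcription factors of adipocyte and myeloid differentiation, were among the lower ones. Cebpa stood at 98.3, 64.7 and 55.3 in ADSF, against 468, 483 and 494 in NDSF (-2.75, SE 0.20, adjusted p = 4.5e-05), and Cebpd at 59.6, 64.7 and 42.1 in ADSF, against 212, 223 and 168 in NDSF (-1.85, SE 0.20, adjusted p = 0.00036). The higher genes were Cdkn1a and Cdkn2b, both inhibitors of cyclin-dependent kinases. Cdkn1a, known as p21, stood at 563, 657 and 879 in ADSF, against 302, 306 and 288 in NDSF (1.20, SE 0.15, adjusted p = 0.00072). Cdkn2b was higher by 1.44 (SE 0.45, adjusted p = 0.045) and was not called when library 1 of ADSM or any library of ADSF, library 1 of NDSF or library 2 of NDSF was left out, nor with a pseudocount of 0.5, without the filter on low values or with only these 2 groups in the fit.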

How the data were processed

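RNA was sequenced in 9 libraries grouped by the deposited sample descriptions into ADSM, ADSF and NDSF. TopHat (mapping to mm10) and Cufflinks are named, without versions, in the methods and submitters' processing notes. Which program counted reads, and with which strand setting, is not given in the sources used, so overlapping genes may share reads. As deposited, the signal values of 23420 genes are reads that the authors scaled by a TMM factor for each library, and a second deposited table of the same signal for the 6 ADSM and ADSF libraries gave the same reads in 140514 of 140514 values. FPKM values made by the authors with Cufflinks were deposited for the same 6 libraries and used for single levels only. The authors' own comparison columns in these tables (fold changes, p-values and q-values) were not used. Per-sample columns left unused numbered 0.

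All values were whole multiples of the value of 1 read within 0.001, so reads were recovered for the counting intervals (exact, 95%) and for edgeR and DESeq2. The main test was limma with a variance trend on log2(value + 1), fitted to the 3 groups at once over 11889 genes whose value reached 10 in 3 libraries, with Benjamini-Hochberg adjustment over these genes and a threshold of 0.05. It was checked on simulated data with few changed genes, the same dispersion for every gene and no outlying library, unlike these data. A gene could enter the tested set through a single group. Mycn and E2f2 entered through ADSM alone. Myc, Mxd3, Fam49a, Usp13, Ccnd2, Cdkn2b and Gadd45b entered through the fibroblasts alone. For such genes the group that admitted them is the group where they are high, which limits their p-values. Tools were limma 3.58.1, DESeq2 1.42.0 and edgeR 4.0.16 under R 4.3.3. Alternatives were other pseudocounts, filters and scaling, each library left out, fits of 2 groups, the replicate number as a block, edgeR and DESeq2. Depth was 2380483 to 3351184 reads per library, so a value of a few units rests on a few reads. An exact permutation test of 3 against 3 libraries cannot go below p = 0.1 and was not used.

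The 7 genes and all gene lists were chosen with earlier results of these data known. Named are these 7, the other network genes, the locus neighbours, the 4 genes of each further list with the smallest adjusted p in each comparison, and the 5 genes whose pattern over the 9 libraries was most like that of Mycn or of Myc. Further genes named were chosen after their values were seen. Levels between genes were compared per kb of the deposited exon length. Promoter letters came from RefSeq (GRCm38.p6), and no protein sequence was used here. Single values of 2 genes of these lists are not reported here.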

Additional observations from a re-analysis of the deposited data

How the results depend on the processing

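Among the genes named by the rules above, no difference that passed the test changed direction under the alternatives run. Direction was not followed for other genes, among them Smarcb1, Ndrg2, Btg1 and Cdkn2a. The number of genes called between ADSF and NDSF ran between 756 and 4086 when a library was left out, the nucleolar genes higher in ADSF between 9 and 31, the metabolic genes between 3 and 27 and the cell cycle genes between 1 and 13, with library 3 of NDSF giving each upper end. The cell cycle count was 2 with only the 2 groups in the fit. Same-numbered libraries did not pair (correlations of deviations from -0.140 to 0.178), and with a replicate block that count was 5 and 2307 genes were called, against 2518 without the block. Genes called between ADSM and ADSF stayed between 7473 and 8771, and between ADSM and NDSF between 8155 and 8915, when a library was left out. The size of the Mycn difference depended on the pseudocount and the tool: between ADSM and ADSF it was 7.24 with a pseudocount of 5, and between ADSM and NDSF it was 7.56 with a pseudocount of 5, 10.02 with 0.5, 10.45 by edgeR and 10.67 by DESeq2. Myc differed by -4.09 between ADSM and ADSF and -3.95 between ADSM and NDSF with a pseudocount of 5. At this depth Mycn in the fibroblasts rests on 6 reads in ADSF and 2 in NDSF. Mxi1 differed by 2.04 between ADSM and ADSF after upper-quartile scaling, and Mycn by 1.83 between ADSF and NDSF by DESeq2. The differences of the genes named by these rules, and the counts, were followed under all alternatives. Of these, 5055 kept their side of the threshold, stayed close to the first count or, for the 7 genes, moved by less than the spread between libraries. Another 164 fell short of the threshold or lost members, 43 passed it or gained members and 9 moved in size. The causes were not tested.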

Other observations

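Genes were ranked by the Pearson correlation of log2(value + 1) with Mycn and with Myc over the 9 libraries, as a description over 3 groups that share their libraries. The pattern most like that of Mycn was found for Mdh1, the cytosolic malate dehydrogenase (r = 0.997), Crlf3 (0.996), Hspbp1, a partner of the chaperone HSP70 (0.995), Gins3, a subunit of the replicative helicase (0.995), and Plrg1, a splicing factor (0.993), and 727 tested genes reached 0.95. Mdh1 stood at 1576, 1506 and 1498 in ADSM, against 392, 385 and 334 in ADSF and 336, 311 and 346 in NDSF. Gins3 stood at 193, 156 and 172 in ADSM, against 28.8, 27.4 and 20.4 in ADSF and 17.5, 17.0 and 20.6 in NDSF. The pattern most like that of Myc was found for Lbh (0.997), Dab2ip (0.997), Clmp (0.997), Tnks1bp1 (0.997) and Itpripl2 (0.996), and 2197 tested genes reached 0.95. Dab2ip, a RAS GTPase activator, stood at 0.854, 1.04 and 0 in ADSM, against 223, 227 and 215 in ADSF and 209, 194 and 188 in NDSF. Within the network Mycn correlated with Myc at -0.973, with Mxd4 at -0.955, with Mxd1 at -0.794, with Mnt at -0.114, with Mxi1 at 0.804 and with Max at 0.821. These genes were chosen on the levels of Mycn and Myc in these groups, so nothing is read from these correlations.

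Cdkn2a, which encodes the p16 and ARF inhibitors and was named after its values were seen, was at 0 in all 3 ADSM libraries, against 47.6, 47.3 and 79.3 in ADSF and 9.20, 12.98 and 25.3 in NDSF. It lies beside Cdkn2b on chromosome 4, which was also nearly unread in ADSM.

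Among the promoter windows of the target lists, the E-box CACGTG stood in 31.4% of the 35 windows of the metabolic and translation genes, in 6.06% of the 33 windows of the nucleolar genes, in 16.7% of the 18 windows of the cell cycle genes and in 19.0% of the 21 windows of the genes repressed by MYC, beside 6.02% of all 32851 windows.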
